A study of Homo sapiens with 6 samples.

Results

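The ATP-binding cassette (ABC) transporter genes were examined in mRNA sequencing of MDA-MB-453 cells with and without knockdown of tRF-1-Ser. Members were chosen by name: every gene in the count table whose symbol was ABC, a subfamily letter from A to G and a number. This gave 46 of the 36517 genes listed, with 12 in subfamily A, 9 in B, 12 in C, 4 in D, 1 in E, 3 in F and 5 in G. The drug efflux pumps ABCB1, ABCC1 to ABCC6 and ABCG2, 8 of the 46, were set apart from the other 38. No human ABC gene of the role table drawn up for these subfamilies lacked an entry, although several entries held almost no reads, and ABCC13 is a pseudogene. TAP1, TAP2 and CFTR belong to the family by function but not by symbol, and they are described apart.

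ABC transporters use the energy of ATP binding and hydrolysis, at a pair of nucleotide-binding domains, to carry substrates across a membrane, and in human cells most of them export. Different members move drugs and drug conjugates, bile acids, cholesterol and phospholipids, peptides, haem precursors or very-long-chain fatty acids, and members of subfamilies E and F have no membrane domain and act on ribosomes. In breast cancer the best known are the pumps P-glycoprotein (ABCB1), MRP1 (ABCC1) and BCRP (ABCG2), which expel chemotherapeutic agents.

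MDA-MB-453 is an established human breast cancer cell line of luminal type without oestrogen receptor. All cells had been transduced with a lentivirus, which carried a negative-control hairpin in the 3 control libraries and a hairpin against tRF-1-Ser, a small RNA cut from the trailer of a serine tRNA precursor, in the 3 shtRF libraries. RNA was taken at day 3. The comparison addressed what changes in the transcriptome when tRF-1-Ser is depleted. A single cell line was used, and the small RNA itself was not measured in these mRNA libraries. The study calls its replicates biological, but whether they came from separate transductions is not stated, and p-values measure the spread between these libraries.

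Library totals ran from 63541413 to 78917459 counts. The 10 luminal marker genes fixed for the line summed to 4883 to 4977 CPM (counts scaled to a common library size with TMM factors) in control and 5985 to 6454 CPM in shtRF, whereas ESR1, PGR and CD44 together stayed at or under 0.569 CPM in every library. The luminal sum rose mainly with KRT8, at a log2 fold change of 0.79. Blood cell markers summed to at most 0.252 CPM and endothelial markers to at most 0.349 CPM, with CD3E at no more than 3 counts in any library. Fibroblast markers summed to 29.7 to 35.4 CPM in control and 20.6 to 21.4 CPM in shtRF, nearly all of it COL1A1, with DCN at no more than 3 counts and LUM not listed, and basal markers to 2.78 to 3.55 and 1.78 to 2.68 CPM. The part of these shifts in the ABC results was not tested.

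Knockdown cells held more mRNA of 12 ABC genes and less of 7, out of 33 with enough reads for a test, and 14 did not pass it. The test was edgeR's quasi-likelihood test of shtRF against control with Benjamini-Hochberg adjustment over 19628 genes, and a gene was called at an adjusted p under 0.05. Calls were common in this comparison, with 39.5% of all tested genes called, 20.6% higher and 18.9% lower. Of the tested ABC genes 57.6% were called, 36.4% higher and 21.2% lower. Among genes of at least 1 RPKM (reads per kilobase of exon and library total, the scale used below to compare one gene with another), 14 of 23 ABC genes were called, or 60.9%, beside 48.2% of all such genes. The median log2 fold change was 0.20 over the tested ABC genes and -0.003 over all tested genes. It was 0.06 for the 23 tested ABC genes of at least 1 RPKM and 0.44 for the 10 under 1 RPKM. When the same comparison was made with limma on log2(RPKM + 1), the split was 8 higher and 8 lower in place of 12 and 7.

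Most of these changes were small. Of the 12 ABC genes called higher 6 changed by less than 0.5 on the log2 scale, as did 4 of the 7 called lower. Of the 33 tested ABC genes 3 were called with a change of more than 2-fold, ABCC12, ABCC3 and ABCA10, all higher. Among all tested genes 5.77% were called with such a change, 2.66% higher and 3.11% lower. ABCA6 and ABCA9 also had estimates above 2-fold, from few reads, but were not called. The CPM ranges of the groups did not overlap for 19 of the 33 ABC genes, or for 48.7% of all tested genes. In subfamily C 5 of the 10 tested members were higher and 3 lower, and in subfamily A 4 of 10 were higher and 2 lower. Without a limit on fold, as in these counts, 20.6% of all tested genes were higher and 18.9% lower. The groups by role are shown together in the plot of changes.

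**Figure D1:**
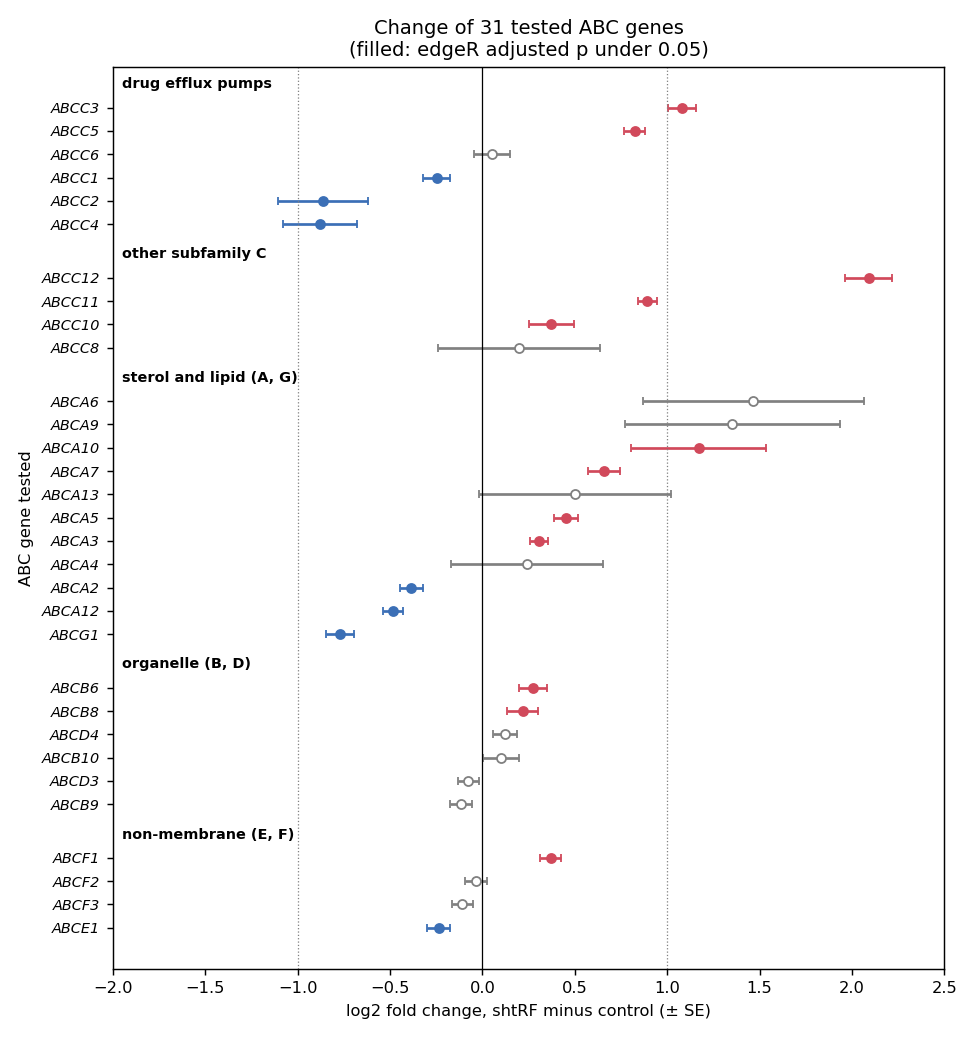
Log2 fold change (shtRF minus control, with SE) of 31 of the 33 tested ABC genes, grouped by role and coloured by direction where called (edgeR adjusted p under 0.05). ABCC12 stands at the right end at 2.09, ABCC4, ABCC2 and ABCG1 at the left end between -0.88 and -0.77, and the organelle transporters drawn lie between -0.12 and 0.27.

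Expression of the family was uneven. On the RPKM scale, 8 of the 46 genes averaged at least 10, 15 lay between 1 and 10, and 23 lay under 1, of which 19 were under 0.1. ABCF1 was the most abundant member, followed by ABCC11, ABCC5 and ABCA3. ABCF1 alone made up 31.5% of the summed RPKM of the 46 genes in control and 32.9% in shtRF, and ABCC11 made up 9.86% and 14.8%. The summed RPKM of all 46 was 294, 290 and 295 in control and 348, 344 and 353 in shtRF, or 293 ± 2.48 and 348 ± 4.90 (mean ± SD, n = 3). In whole-culture RNA, fewer cells with a transcript cannot be told apart from less transcript per cell.

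**Figure D2:**
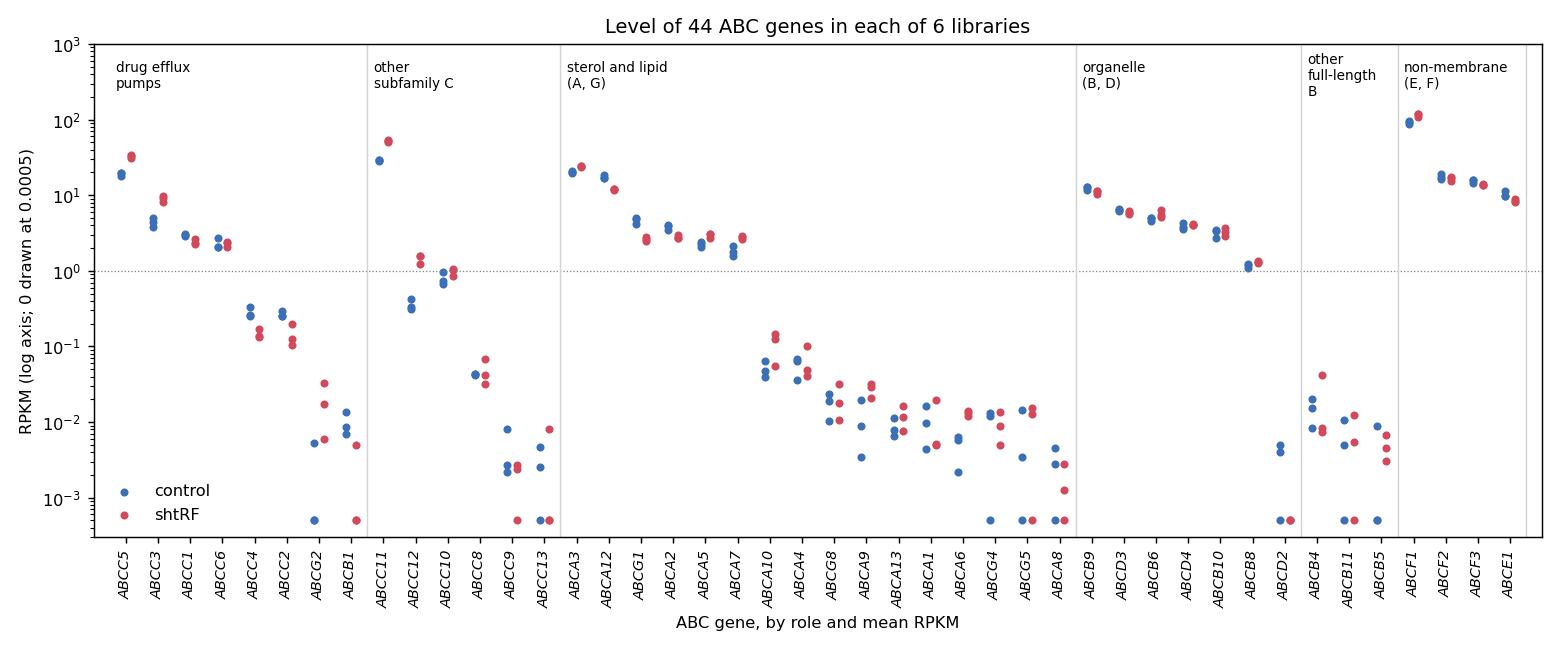
RPKM of 44 of the 46 ABC genes in each of the 6 libraries on a log axis, grouped by role and ordered by mean level within each group, with values of 0 drawn near the foot of the axis. A few genes, led by ABCF1, ABCC11, ABCC5 and ABCA3, sit above 20 RPKM on average, and 19 of the 46 sit under 0.1 RPKM.

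The drug efflux pumps moved in both directions: ABCC5 and ABCC3 rose, ABCC1, ABCC2 and ABCC4 fell, ABCC6 did not pass the test, and ABCB1 and ABCG2 were close to absent. Of all tested genes 20.6% were higher and 18.9% lower, and of the 6 tested pumps 2 were higher and 3 lower. Their median log2 fold change was -0.10. Both genes that rose were the most abundant pumps. Summed over the 8 pumps, RPKM went from 31.0, 29.9 and 27.2 in control to 49.1, 44.2 and 46.9 in shtRF, and the groups did not overlap. Pumps made up 10.0% ± 0.694 (SD, n = 3) of the summed ABC RPKM in control and 13.4% ± 0.648 in shtRF. ABCC3 and ABCC5 together supplied 80.3% ± 1.03 of pump RPKM in control and 89.4% ± 0.661 in shtRF.

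**Figure D3:**
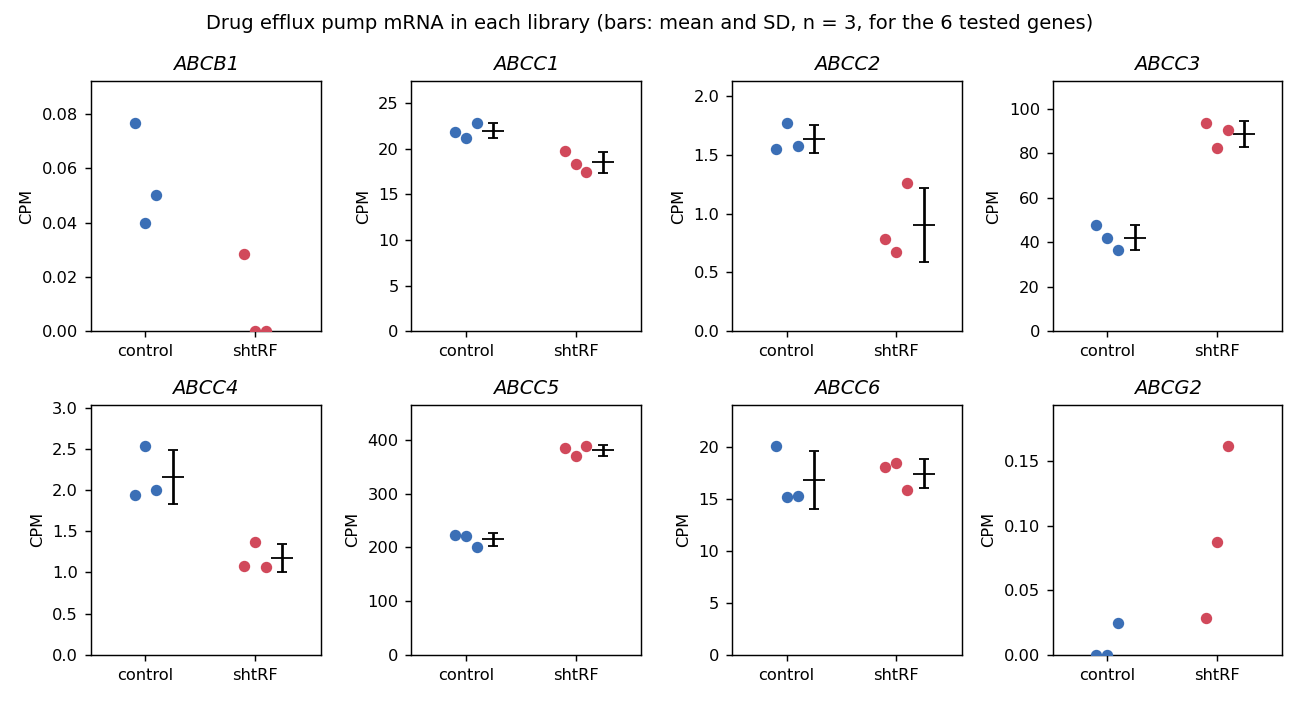
CPM of the 8 drug efflux pumps in each library, 1 panel a gene with its own linear axis from 0, with points for libraries and, for the 6 tested genes, bars for group means ± SD (n = 3). ABCC5 and ABCC3 sit higher in all 3 shtRF libraries than in any control library, ABCC1, ABCC2 and ABCC4 sit lower, ABCC6 overlaps, and ABCB1 and ABCG2 stay at or under 0.161 CPM.

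ABCC5 (MRP5), a transporter of cyclic nucleotides and nucleotide analogue drugs, was the most abundant pump. The gene lies on the minus strand at chr3:183919934-184018015 (GRCh38, gene bounds as deposited). Control replicates 1 to 3 gave 222, 222 and 201 CPM, and shtRF replicates 1 to 3 gave 385, 369 and 387 CPM. Every shtRF library was above every control library, and the log2 fold change was 0.82 ± 0.06 (SE; edgeR adjusted p = 8.87e-11), or 1.77-fold. ABCC3 (MRP3), which exports glucuronide conjugates and bile salts across the basolateral membrane, lies on the plus strand at chr17:50634777-50692252. Its CPM was 47.9, 42.0 and 36.5 in control and 93.8, 82.5 and 90.5 in shtRF. The groups were again apart, with a log2 fold change of 1.08 ± 0.08 (edgeR adjusted p = 1.88e-10), or 2.11-fold, and ABCC3 was the only pump past 2-fold.

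Of the pumps that fell, ABCC1 (MRP1), a broad exporter of glutathione conjugates and anthracyclines at chr16:15949577-16143074, changed least. It had 21.9, 21.2 and 22.8 CPM in control and 19.7, 18.3 and 17.4 CPM in shtRF. The ranges did not overlap, but the log2 fold change was only -0.25 ± 0.07 (edgeR adjusted p = 0.00869), and without shtRF replicate 3 the adjusted p was 0.065. ABCC4 (MRP4), an exporter of cyclic nucleotides and prostaglandins at chr13:95019829-95301446, had 126, 191 and 160 counts in control and 76, 94 and 66 in shtRF, from libraries of similar total. ABCC2 (MRP2), the apical exporter of conjugates at chr10:99782732-99852192, had 101, 134 and 126 counts in control and 55, 46 and 78 in shtRF. Both were lower in all 3 shtRF libraries than in any control library, by 1.84-fold for ABCC4 (log2 fold change -0.88 ± 0.20, adjusted p = 0.00115) and by 1.82-fold for ABCC2 (-0.86 ± 0.24, adjusted p = 0.00679). Neither exceeded 0.281 RPKM as a group mean, so these falls concerned pumps present at a small fraction of the level of ABCC5, whose group means were 19.1 and 32.7 RPKM.

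ABCC6 (MRP6), which mediates ATP release and is mutated in pseudoxanthoma elasticum, lies at chr16:16148928-16223522, next to ABCC1 on the opposite strand. Its CPM was 20.03, 15.2 and 15.2 in control and 18.1, 18.4 and 15.8 in shtRF. The groups overlapped, and the log2 fold change was 0.05 ± 0.10 (edgeR adjusted p = 0.709). Its reads were harder to place than those of the other pumps, since 11.5% of the 100-base stretches of its transcript also occur in other genes, most of them in the pseudogene ABCC6P1 (9.68% of the transcript), although ABCC6P1 itself held 2 counts in each group.

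The 2 pumps most often named in drug resistance were barely detected. ABCB1 (P-glycoprotein, chr7:87503633-87713323) had 5, 3 and 4 counts in control and 2, 0 and 0 counts in shtRF. ABCG2 (BCRP, chr4:88090264-88231322) had 0, 0 and 2 counts in control and 2, 6 and 10 in shtRF. Both had too few reads to enter the test, and the limit that a count of 0 allows, 3 counts, corresponded to 0.038 to 0.0472 CPM in these libraries. Summed over libraries, ABCB1 went from 12 to 2 counts, a depth-corrected ratio of control to shtRF of 5.67 (95% exact interval 1.26 to 52.2). ABCG2 went from 2 to 18 counts, a ratio of shtRF to control of 9.52 (95% exact interval 2.28 to 84.6). These intervals cover counting error only, and the reads behind them were not all independent: of 43 ABC values of 1 to 4 counts, 37 were even, as counting both mates of a pair gives. With counts halved for that reason, the intervals became 0.85 to 298 for ABCB1 and 1.32 to 417 for ABCG2. In edgeR without the filter on low counts, the adjusted p was 0.47 for ABCB1 and 0.159 for ABCG2.

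Outside the pumps, subfamily C held the largest change in the family. ABCC12 (MRP9) and ABCC11 (MRP8), which lie in tandem on the minus strand of chromosome 16, both rose. ABCC11 exports cyclic nucleotides and steroid conjugates and is required for apocrine gland secretion. The transport function of ABCC12 is poorly known. ABCC11 (chr16:48166910-48247568) was the second most abundant ABC gene, at 28.9 ± 0.171 RPKM in control and 51.7 ± 1.81 RPKM in shtRF (SD, n = 3). Its CPM was 205, 204 and 208 in control and 371, 377 and 398 in shtRF. The groups were far apart relative to their spread, with a log2 fold change of 0.89 ± 0.05 (edgeR adjusted p = 1.00e-11), or 1.86-fold.

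ABCC12 (chr16:48082973-48156018) started from a low level, with 150, 181 and 250 counts in control, and reached 825, 665 and 750 counts in shtRF. In CPM this was 2.31, 2.40 and 3.13 in control and 11.7, 9.68 and 12.1 in shtRF. The log2 fold change was 2.09 ± 0.13 (edgeR adjusted p = 2.02e-11), or 4.26-fold, the largest of the 33 tested ABC genes. No 100-base stretch of the reference transcripts of ABCC11 or ABCC12 occurred in another gene, the other member of the pair included. Other genes, mainly LONP2 on the opposite strand, shared 5.23% of the exonic sequence of ABCC11.

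Genes around the pair were looked at after these values were seen. Over all tested genes 20.6% were higher and 18.9% lower. Within 1000 kb of the centre of the pair 8 other genes were tested, of which 4 were higher and none was lower by edgeR. The 4 were LONP2 (log2 fold change 0.38, adjusted p = 4.06e-06), a peroxisomal protease gene, N4BP1 (0.32, adjusted p = 5.33e-04), ITFG1 (0.47, adjusted p = 1.59e-06) and the noncoding RP11-3M1.1, which shares 20.2% of its exonic sequence with ABCC11 (0.75, adjusted p = 0.00279). SIAH1, at 0.18, and PHKB, at 0.14, were not called. None of these neighbours came near the change of ABCC12, as the plot of the region shows. Neighbours that share exons with each other may not give fully separate measurements. For LONP2 and ABCC11 the shared part was small, at 4.04% of the exonic bases of ABCC11.

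**Figure D4:**
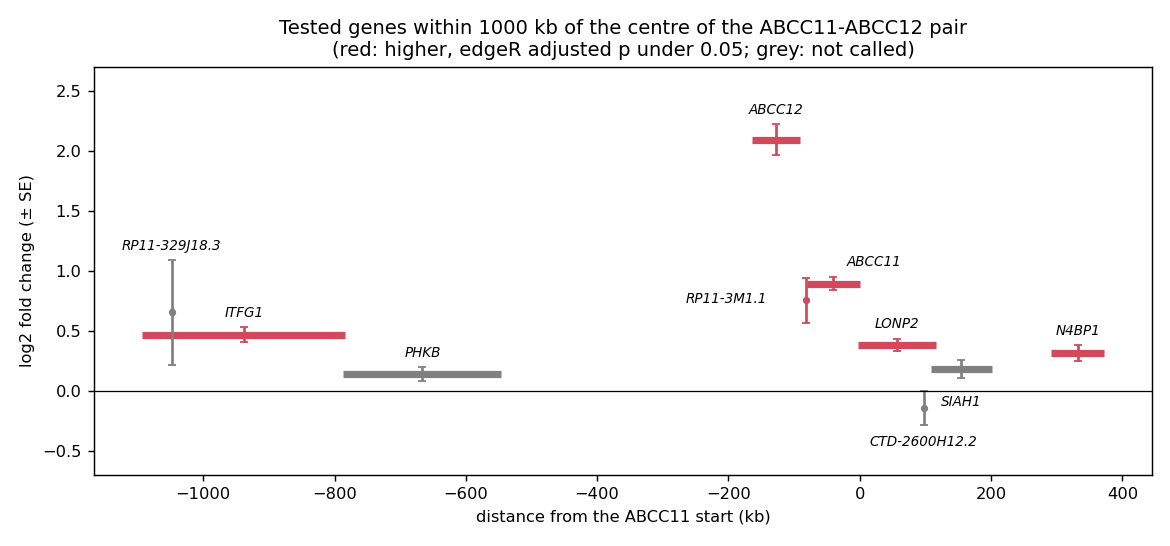
Log2 fold change (shtRF minus control, with SE) of the 10 tested genes within 1000 kb of the centre of the ABCC11 and ABCC12 pair, drawn as bars over the span of each gene by distance in kb from the ABCC11 start. ABCC12 stands at 2.09 and ABCC11 at 0.89, and the other called genes lie between 0.32 and 0.75.

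The promoters of subfamily C members that moved most are given here so that the genes that rose can be set beside those that fell. Each is the RefSeq window (GRCh38.p14, 300 bases, from 250 before to 50 after the start, read 5′ to 3′ on the strand of the gene), in lower case with every match on either strand to any of 4 motifs in capitals. GCGTG is the core of the AHR-ARNT site, ACGTG the core of the hypoxia response element, GGGCGG the GC box and TATAAA the TATA box. The windows are chr3:184017835-184018134 (minus) for ABCC5, chr16:48247490-48247789 (minus) for ABCC11, chr16:48155944-48156243 (minus) for ABCC12, chr13:95301402-95301701 (minus) for ABCC4 and chr10:99782390-99782689 (plus) for ABCC2. RefSeq lists 3 windows each for ABCC11 and ABCC12, and the one whose start lay nearest the start of the gene in the count table is given. The first 3 genes rose and the last 2 fell. No window was held for ABCC3 or ABCC1.
ABCC5: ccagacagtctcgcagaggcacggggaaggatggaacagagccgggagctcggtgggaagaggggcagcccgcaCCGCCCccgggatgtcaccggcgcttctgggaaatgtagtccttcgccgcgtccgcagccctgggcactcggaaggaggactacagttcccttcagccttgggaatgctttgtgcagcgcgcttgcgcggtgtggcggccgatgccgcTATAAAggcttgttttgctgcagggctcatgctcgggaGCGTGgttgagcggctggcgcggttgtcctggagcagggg
ABCC11: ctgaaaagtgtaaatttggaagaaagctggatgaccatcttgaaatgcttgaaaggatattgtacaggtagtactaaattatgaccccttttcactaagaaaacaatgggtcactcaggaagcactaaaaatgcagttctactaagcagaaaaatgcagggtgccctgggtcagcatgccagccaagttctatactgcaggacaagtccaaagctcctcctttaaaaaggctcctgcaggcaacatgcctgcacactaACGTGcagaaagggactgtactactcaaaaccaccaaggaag
ABCC12: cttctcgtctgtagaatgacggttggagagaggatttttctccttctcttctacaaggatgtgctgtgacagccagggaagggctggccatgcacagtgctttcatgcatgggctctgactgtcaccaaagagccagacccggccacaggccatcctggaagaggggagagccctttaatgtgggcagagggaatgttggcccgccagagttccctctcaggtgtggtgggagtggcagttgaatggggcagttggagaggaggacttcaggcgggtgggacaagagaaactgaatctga
ABCC4: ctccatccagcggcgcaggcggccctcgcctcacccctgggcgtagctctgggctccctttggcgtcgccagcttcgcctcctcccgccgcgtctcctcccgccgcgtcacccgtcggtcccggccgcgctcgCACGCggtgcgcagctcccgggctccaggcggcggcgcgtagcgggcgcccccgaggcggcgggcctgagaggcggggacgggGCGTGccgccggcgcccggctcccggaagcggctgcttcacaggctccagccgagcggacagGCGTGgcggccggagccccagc
ABCC2: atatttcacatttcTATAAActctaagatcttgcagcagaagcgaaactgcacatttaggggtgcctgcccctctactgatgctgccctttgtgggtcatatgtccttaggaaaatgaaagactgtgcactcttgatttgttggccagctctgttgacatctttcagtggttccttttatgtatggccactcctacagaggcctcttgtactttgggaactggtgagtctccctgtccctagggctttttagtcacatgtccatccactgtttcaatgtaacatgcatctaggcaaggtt

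The 5 windows had little in common. ABCC5 held 1 GCGTG, 1 GGGCGG and 1 TATAAA, the window shown for ABCC11 held 1 ACGTG, that for ABCC12 held none of the 4 motifs, ABCC4 held 3 GCGTG and ABCC2 held 1 TATAAA. Base composition also differed, with a G and C share of 79.7% for ABCC4, 65.7% for ABCC5, 55.7% for ABCC12, 45% for ABCC2 and 43.7% for ABCC11. Over the 35 ABC genes with a window, taken by the same choice, 14 held GCGTG (40.0%, beside 36.5% of 35116 windows of all genes), 10 held ACGTG (28.6% beside 21.4%), 17 held GGGCGG (48.6% beside 45%) and 6 held TATAAA (17.1% beside 11.5%). The E-box CACGTG, which contains ACGTG, was in 6 (17.1% beside 7.26%). These shares are not matched, since each ABC gene entered with 1 window, whereas the 35116 windows include several starts of some genes. A match describes letters in the window and is not a binding site.

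ABCC10 (MRP7), which confers taxane resistance when overexpressed, had 7.55, 5.79 and 5.34 CPM in control and 8.36, 7.16 and 8.60 CPM in shtRF. It was called higher at a log2 fold change of 0.37 ± 0.12 (edgeR adjusted p = 0.0185), although control replicate 1 lay above shtRF replicate 2. This call was lost when any of 4 libraries was left out (control 2, control 3, shtRF 1 or shtRF 3, adjusted p from 0.0758 to 0.0902). It was also lost with limma on log2(RPKM + 1) and on log2(RPKM + 0.1) (adjusted p = 0.174 and 0.194). ABCC8, the sulfonylurea receptor of the beta cell potassium channel, had a log2 fold change of 0.20 ± 0.44 at under 0.5 CPM, and its channel paralogue ABCC9 and the pseudogene ABCC13 had at most 7 counts in any library. Of the 6 members of subfamily C outside the pumps, 4 were tested, 3 were higher and none was lower. The shares over all tested genes were 20.6% higher and 18.9% lower.

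Transporters of sterols, phospholipids and other lipids, 16 genes of subfamilies A and G, were split. With 5 below the filter, 4 were higher, 3 lower and 4 not called, beside 20.6% higher and 18.9% lower over all tested genes. ABCA3, which loads surfactant phospholipid into lamellar bodies in the lung, was the most abundant of these transporters. It stood at 20.2 ± 0.440 RPKM in control and 24.1 ± 0.344 RPKM in shtRF. Its CPM was 154, 158 and 153 in control and 189, 193 and 193 in shtRF. The groups were apart, with a log2 fold change of 0.31 ± 0.05 (edgeR adjusted p = 4.10e-05). ABCA7, a phospholipid transporter linked to phagocytosis, rose from 17.4, 14.6 and 13.1 CPM to 23.8, 22.8 and 24.2 CPM (log2 fold change 0.66 ± 0.09, adjusted p = 2.52e-06). ABCA5, a lysosomal member, rose by 0.45 on the log2 scale (adjusted p = 8.79e-06).

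ABCG1, which delivers cellular cholesterol to high-density lipoprotein, showed the largest fall among the lipid transporters. Its CPM was 29.9, 29.1 and 25.5 in control and 16.0, 17.7 and 15.8 in shtRF, with no overlap (log2 fold change -0.77 ± 0.08, edgeR adjusted p = 3.86e-08), or 1.71-fold lower. Its partner in cholesterol efflux, ABCA1, which lipidates apolipoprotein A-I, was at 12, 8 and 4 counts in control and 4, 4 and 14 in shtRF, below the filter. ABCA12, the keratinocyte lipid transporter that is mutated in harlequin ichthyosis, was abundant in these cells and fell from 155, 172 and 158 CPM to 114, 120 and 112 CPM (log2 fold change -0.48 ± 0.06, adjusted p = 3.28e-07). ABCA2, an endolysosomal member, fell by 0.39 on the log2 scale (adjusted p = 3.29e-05).

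The 5 genes ABCA8, ABCA9, ABCA6, ABCA10 and ABCA5 form a cluster of related copies on chromosome 17. ABCA5 alone was well expressed, at 2.24 ± 0.181 RPKM in control and 2.95 ± 0.189 RPKM in shtRF. ABCA10 had 21, 40 and 31 counts in control and 32, 89 and 66 in shtRF, and shtRF replicate 1 lay below control replicate 2 in CPM. It was called higher (log2 fold change 1.17 ± 0.37, edgeR adjusted p = 0.0141), and 3.78% of its exonic bases lie in ABCA5. The call of ABCA10 was lost when control 1, shtRF 2 or shtRF 3 was left out (adjusted p = 0.059, 0.121 and 0.0599). It was also lost with limma on log2(RPKM + 1) and on log2(RPKM + 0.1) (adjusted p = 0.149 and 0.12). ABCA9, with 2, 6 and 14 counts against 20, 19 and 12, and ABCA6, with 2, 6 and 7 against 14, 12 and 12, were tested but not called (adjusted p = 0.071 and 0.0568), and ABCA9 was called when control 3 was left out (adjusted p = 0.0293). ABCA8 had at most 4 counts in a library. Of the lipid transporters elsewhere in the genome, ABCA4 and ABCA13 were tested at under 0.1 RPKM and not called.

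The transporters of mitochondria, lysosomes and peroxisomes changed little. Of 9 genes in subfamilies B and D, 8 were tested. The test called 2 higher and none lower, beside 20.6% and 18.9% of all tested genes. The median log2 fold change of these 8 transporters was 0.08. ABCB9, a lysosomal peptide transporter, was the most abundant at 12.5 ± 0.646 RPKM in control and 11.1 ± 0.546 RPKM in shtRF, and its groups overlapped (log2 fold change -0.12 ± 0.06, edgeR adjusted p = 0.137), though it was called lower without control 2 (adjusted p = 0.0488). Other genes, mainly RP11-197N18.2, shared 24.5% of its exonic sequence. ABCB6, a porphyrin transporter, had 25.6, 22.9 and 26.0 CPM in control and 28.2, 28.2 and 33.7 CPM in shtRF (log2 fold change 0.27 ± 0.08, adjusted p = 0.00624). However, 54.5% of its exonic sequence is shared with ATG9A, an autophagy gene whose own log2 fold change was 0.25. The call of ABCB6 was lost without control 2 or shtRF 3 (adjusted p = 0.0559 and 0.0799). With limma on log2(RPKM + 1) and on log2(RPKM + 0.1) it was lost too (adjusted p = 0.105 and 0.0969).

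ABCB8, a mitochondrial inner membrane member, had 11.3, 10.1 and 10.9 CPM in control and 12.2, 13.0 and 12.2 CPM in shtRF. The ranges did not overlap, but its log2 fold change of 0.22 ± 0.08 only just passed (edgeR adjusted p = 0.0448). The call was lost in 11 of 15 alternatives, among them leaving out any single library but control 1. Among the members not called were ABCB10, which serves haem synthesis in mitochondria, with a log2 fold change of 0.10 ± 0.10, and the peroxisomal fatty acid transporter ABCD3, at -0.08 ± 0.06. ABCD4, which takes part in the release of vitamin B12 from lysosomes, stood at 0.12 ± 0.07 and was called when control 1 was left out. ABCD2, a further peroxisomal member, had at most 2 counts in a library.

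The soluble members, which act in translation, held both the most abundant ABC gene and a decline. ABCF1, which supports translation initiation, lies at chr6:30571376-30597179 and stood at 92.2 ± 3.74 RPKM in control and 115 ± 4.44 RPKM in shtRF. Its CPM was 413, 389 and 427 in control and 492, 553 and 543 in shtRF. All 3 shtRF libraries exceeded all control libraries (log2 fold change 0.37 ± 0.06, edgeR adjusted p = 2.36e-05). ABCE1, the ribosome recycling factor, had 60.6, 60.0 and 69.4 CPM in control and 55.8, 53.9 and 51.5 CPM in shtRF and was lower (log2 fold change -0.24 ± 0.06, adjusted p = 0.00392), and it shared 11.9% of its exonic sequence with other genes. ABCF2 and ABCF3 had log2 fold changes of -0.03 ± 0.06 and -0.11 ± 0.06 and overlapped between groups. ABCF3 was called lower when control 3 was left out (adjusted p = 0.0476), with upper quartile scaling (adjusted p = 0.0436) and with limma on either log2 RPKM scale (adjusted p = 0.0434 and 0.0429).

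The 13 ABC genes with too few reads for the test were ABCB1, ABCG2, ABCA1, ABCA8, ABCB4, ABCB5, ABCB11, ABCC9, ABCC13, ABCD2, ABCG4, ABCG5 and ABCG8. None exceeded 22 counts in any library, a value reached by ABCB4 in shtRF replicate 1, and together they summed to at most 0.132 RPKM in a library. They include all full-length subfamily B members: ABCB1, the phosphatidylcholine exporter ABCB4, the bile salt export pump ABCB11, and ABCB5. They also include the sterol pair ABCG5 and ABCG8, which limits plant sterol uptake in gut and liver. In edgeR without a filter, none of the 13 passed at the adjusted threshold and 1, ABCG2, had an unadjusted p under 0.05. At this depth no change in these genes was established, which differs from showing that they did not change.

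Among ABC genes with other symbols, the subunits of the peptide transporter for antigen presentation moved apart. TAP1 (chr6:32845209-32853978) had 13.9, 14.4 and 14.7 CPM in control and 11.1, 9.87 and 11.6 CPM in shtRF, a log2 fold change of -0.40 ± 0.08 (edgeR adjusted p = 5.54e-04), with 9.96% of its exonic bases shared with other genes. TAP2 (chr6:32821833-32838780) had 26.1, 32.6 and 32.4 CPM in control and 34.1, 33.7 and 38.4 CPM in shtRF (0.22 ± 0.08, adjusted p = 0.0296). Its call was lost in 5 of 15 alternatives, among them leaving out control 1 or shtRF 3 (adjusted p = 0.231 and 0.183). Other genes shared 32.3% of its exonic bases. CFTR, the chloride channel of the family, had 11, 9 and 11 counts in control and 2, 6 and 1 in shtRF and was not tested.

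Genes that work beside the ABC transporters were counted from lists drawn up by role. Of all tested genes 39.5% were called, 20.6% higher and 18.9% lower. Of 12 regulators of drug pump genes, 10 were tested, 1 was higher and 6 were lower (70.0% called). Their median log2 fold change was -0.21. AHR, a xenobiotic receptor, rose from 9.59 ± 0.715 to 31.5 ± 1.37 CPM (log2 fold change 1.71, edgeR adjusted p = 1.03e-13), although another gene shares 39.2% of its exonic sequence. A link between AHR and the changes of ABC genes was not tested. PPARA, a fatty acid-activated receptor, fell from 9.34 ± 0.343 to 4.48 ± 0.353 CPM (-1.06, adjusted p = 3.38e-08). Of 20 drug transporters and related genes outside the family, 11 were tested, 5 were higher and 2 lower (63.6% called). Their median was 0.21. The carnitine and ergothioneine transporter gene SLC22A4 had the largest rise (1.83, adjusted p = 3.22e-08) and the folate carrier gene SLC19A1 the largest fall (-0.79, adjusted p = 3.49e-05).

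Of 16 genes of sterol handling and the liver X receptor pathway, which controls ABCA1 and ABCG1, 13 were tested. Among these 2 were higher and 3 lower (38.5% called, beside 39.5% of all tested genes), with a median of 0.03. SMPDL3A rose (0.76, edgeR adjusted p = 3.70e-06), and SREBF1, the regulator of lipid synthesis, fell from 204 ± 23.8 to 94.5 ± 8.15 CPM (-1.11, adjusted p = 7.76e-11). Of 12 partner proteins of ABC transporters, 11 were tested, 4 were higher and 3 lower (63.6% called), with a median of 0.02. Among them PEX19, which brings peroxisomal membrane proteins such as ABCD3 to their membrane, rose (0.64, adjusted p = 2.57e-08) and MMACHC, which processes the vitamin B12 that ABCD4 helps release, fell (-0.62, adjusted p = 2.12e-05).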

How the data were processed

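Strand-specific, paired-end mRNA libraries of MDA-MB-453 cells (3 control, 3 shtRF, grouped by sample title) were analysed. The authors deposited raw read counts per gene with exon coordinates and lengths. The submitters' processing notes name Trimmomatic 0.36, featureCounts (Subread) 1.5.1, edgeR 3.12.1 and GRCh38. The aligner and the strand setting of the counting are not given in the sources used here. They also deposited RPKM values, of which 4997 complete lines were used here. In 4991 of them every value equalled the count divided by gene length and library total (tolerance 1e-06), so RPKM was computed that way for all genes.

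Counts were tested with edgeR 4.0.16 in R 4.3.3 (filterByExpr, minimum count 10, TMM, quasi-likelihood, group only), with Benjamini-Hochberg adjustment over 19628 genes. TMM factors were 0.961 to 1.03 and the common coefficient of variation 7.56%. On simulated data of this comparison (19297 genes, 50 changed per fold size), the test recovered 15 genes at 1.25-fold, 31 at 1.5-fold, 37 at 2-fold and 47 at 4-fold, with 14 false among 144 calls. Alternatives were other scalings and filters, DESeq2 1.42.0, limma 3.58.1, halved counts, a replicate block and leaving out each library. Exon overlap was taken from the deposited coordinates without regard to strand, and shared 100-base stretches from GENCODE transcripts. Sequences came from RefSeq.

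Members, role groups and lists were chosen with earlier results of these data known. The pumps, other ABC genes called past 2-fold, the most abundant and the 2 most changed called genes per role group, untested genes, TAP1, TAP2, CFTR and the extremes of each list were named by rule, and other names were added where a count was small. Individual values of 2 ABC genes, which are included in all counts, are not reported here.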

Additional observations from a re-analysis of the deposited data

How the results depend on the processing

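Of the 19 ABC genes called, 14 kept direction and side of the threshold in every alternative that gave a value, and the exceptions were ABCC1, ABCA10, ABCB6, ABCC10 and ABCB8. The counts of 12 higher and 7 lower became 11 and 8 with upper quartile scaling, 11 and 7 without a filter, with at least 10 counts in every library or with halved counts, and 8 and 8 with limma on log2(RPKM + 1) or log2(RPKM + 0.1), and were 12 and 7 with RLE scaling and DESeq2. Without genes of 10% exonic overlap or more they were 11 and 6. A change of over 2-fold in addition left 3 higher and 0 lower, and among the pumps 1 higher and 0 lower, out of 2 and 3. Leaving out each library gave 8 to 12 higher and 6 to 8 lower, and 2 pumps higher throughout and 2 to 3 lower, the lowest without shtRF replicate 3. On the log2(RPKM + 1) scale the changes of genes under 1 RPKM shrink, with a median over the tested ABC genes of 0.01, to 0.86 for ABCC12 and -0.16 for ABCC4.

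Replicate numbers did not pair the samples (correlations of deviations 0.0185, -0.0029 and 0.0045), and with the number as a replicate block the counts were 12 and 7, and 2 and 3 for the pumps.

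Reversals were limited to genes not called: with single libraries left out, the log2 fold change ran from -0.258 to 0.492 for ABCA4 (lowest without shtRF 3, and -0.00475 without control 3), from -0.0105 to 0.175 for ABCB10 (control 1), from -0.185 to 0.427 for ABCC8 (shtRF 2), from -0.0228 to 0.187 for ABCC6 (control 2, and -0.0123 without control 3) and from -0.0847 to 0.0242 for ABCF2 (highest without control 3). The cause was not tested. Depth limited the 13 genes under the filter.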
